A study of Mus musculus with 4 samples.

Results

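The genes described here are 10 genes of interleukin-1 (IL-1) and Toll-like receptor (TLR) signalling, namely Il1r1, Il1rap, Il1rn, Il1rl1, Il33, Myd88, Tlr2, Tlr3, Tlr4 and Irak3. They were chosen by name, and every probe whose accession is a RefSeq transcript of 1 of them was taken. All 10 genes had a probe, which gave 13 probes and 32 spots out of 55681 probes and 59305 transcript spots on each array. Of the 10 genes, 8 had a probe well above background on all 4 arrays, and Il33 and Tlr3 were not well above background on any array. The array held 37074 genes or unnamed transcripts in all, of which 20667 have a symbol, and "all genes" below includes the unnamed transcripts.

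IL-1 and the microbial or damage products that TLRs recognise act through receptors that share an intracellular TIR domain. Most of these receptors recruit the adaptor Myd88 and the IRAK kinases, which activate NF-κB, the transcription factor family to which Rela (p65) belongs. In cartilage, IL-1 and TLR ligands are known to induce matrix-degrading enzymes, and TNF, which signals through its own receptors, activates NF-κB as well.

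Gene expression was measured in primary chondrocytes of 6-day-old C57BL/6J mice, either Prrx1-Cre; Rela fl/fl, called cKO, or Rela fl/fl littermates without Cre, called control, so that both genotypes carried the floxed Rela allele. Prrx1-Cre is active in limb mesenchyme from before cartilage forms, and is therefore not restricted to chondrocytes. Cells of each genotype were cultured for 3 days with 10 ng ml−1 TNF or without it. Each of the 4 combinations was hybridised to 1 single-colour Agilent mouse array, so no difference below has a replicate and none was tested.

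Values are given as the signal, the processed intensity of a probe divided by the 75th percentile of its array, and differences are on the log2 scale. The technical spread stands in for an error: between probes spotted 10 times, the SD of a difference between 2 single spots was 0.271 below a signal of 0.25, 0.143 from 0.25 to 1 and 0.0863 above 1. It covers the spread within an array and not that between cultures or animals. A difference was counted as past the limit at 2-fold, a log2 difference of 1, where the brighter array was well above background.

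Several values of the arrays as a whole bear on the comparisons. The Rela probe read 28.4 and 34.9 in control cells without and with TNF, and 34.0 and 40.2 on the arrays labelled cKO, so it was higher by 0.26 and 0.21 there. Whether this probe lies in the deleted part of Rela is not known, and genotypes are therefore named by their labels. Xist was well above background on both control arrays and on neither array labelled cKO, with log2 differences of −4.80 and −4.82 or beyond, and the Y-linked Eif2s3y was higher there by 1.81 without TNF and 1.83 with it, so genotype and the sex of the animals cannot be told apart. Eif2s3y was well above background on the control arrays too, at 1.78 and 1.84. Patches of spots bright on a single array covered 1.04 to 10.7% of the spots of an array. A spot was taken to lie in a patch where at least 3 of the 54 spots around it were at least 2-fold brighter on that array than on each of the other 3. All 11 chondrocyte markers were well above background on each array, and their summed signal was 1639 and 1560 in control cells and 1288 and 1315 with the cKO label. All 11 had a negative difference between genotypes, with −1.86 without TNF and −1.19 with it for Matn1 and −0.03 and −0.01 for Col2a1. All 6 fibroblast markers were well above background as well, with summed signals of 714 to 837. Between genotypes Thy1 differed by −1.59 without TNF and by −0.28 with it. The other fibroblast markers differed by −0.44 to 0.05 without TNF. Of 12 leukocyte markers 6 to 8 were well above background on an array, among them Adgre1, Csf1r, Lyz2, Itgam and Fcer1g on all 4 arrays, and Ptprc and C1qa on none. Their summed signal was 37.5 to 46.2, of which Itgam alone made 31.8 to 40.4. Between genotypes without TNF, Lyz2 differed by −2.11, Tyrobp by −1.61 or beyond, Laptm5 by −1.41 or beyond and Adgre1 by 2.87. The other measured leukocyte markers differed by −0.45 to 0.20 there. With TNF in control cells Lyz2 differed by −1.42, Tyrobp by −0.99 and Laptm5 by 1.51, and the other measured ones by −0.29 to −0.10. With the cKO label Adgre1 differed by −3.48 with TNF, and the others by −0.35 to 0.48 or beyond. Between the arrays with TNF Laptm5 differed by −2.88 or beyond, Lyz2 by −0.94, Tyrobp by −0.56 and Adgre1 by −0.50. Csf1r, Itgam and Fcer1g differed by −0.05 to 0.05 there, Mpeg1 by at least 0.14 and Cd3e by 0.26. The part of other cells in the results below was not tested. In such bulk samples, fewer cells of a type and less RNA per cell cannot be told apart.

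With TNF, all 8 measurable genes had a higher signal in control cells, with differences of 0.13 to 1.72 and a median of 0.54, beside a median of 0.01 over all genes tested. With normexp background correction the dim Il1rap was at 0.00, which leaves 7 of the 8. The receptor genes Il1rl1 and Tlr2 were past the limit upwards and no gene downwards, where 2.40% of all genes were past it upwards and 4.27% downwards. With spots in patches left out the shares of all genes were 0.598% and 0.716%, and the same counts of 2 and 0 held for the 10 genes. With all spots kept, the shares of genes with a symbol were 1.78% and 3.16%. On the arrays labelled cKO, the median TNF difference was 0.24 (range −1.83 to 2.46), beside 0.06 over all genes. There Il1rl1 was past the limit upwards and Il1rap downwards, where the shares of all genes were 1.02% and 4.47%. They were 0.911% and 1.78% with patches left out, when Il1rap has no value, 1.59% and 3.84% with quantile normalization, and, with all spots kept and the reported scaling, 1.10% and 2.53% for genes with a symbol. Without scaling, TNF differences with the cKO label were lower by about 0.1, the median over all genes being −0.04. These 2 TNF comparisons use different arrays.

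**Figure D1:**
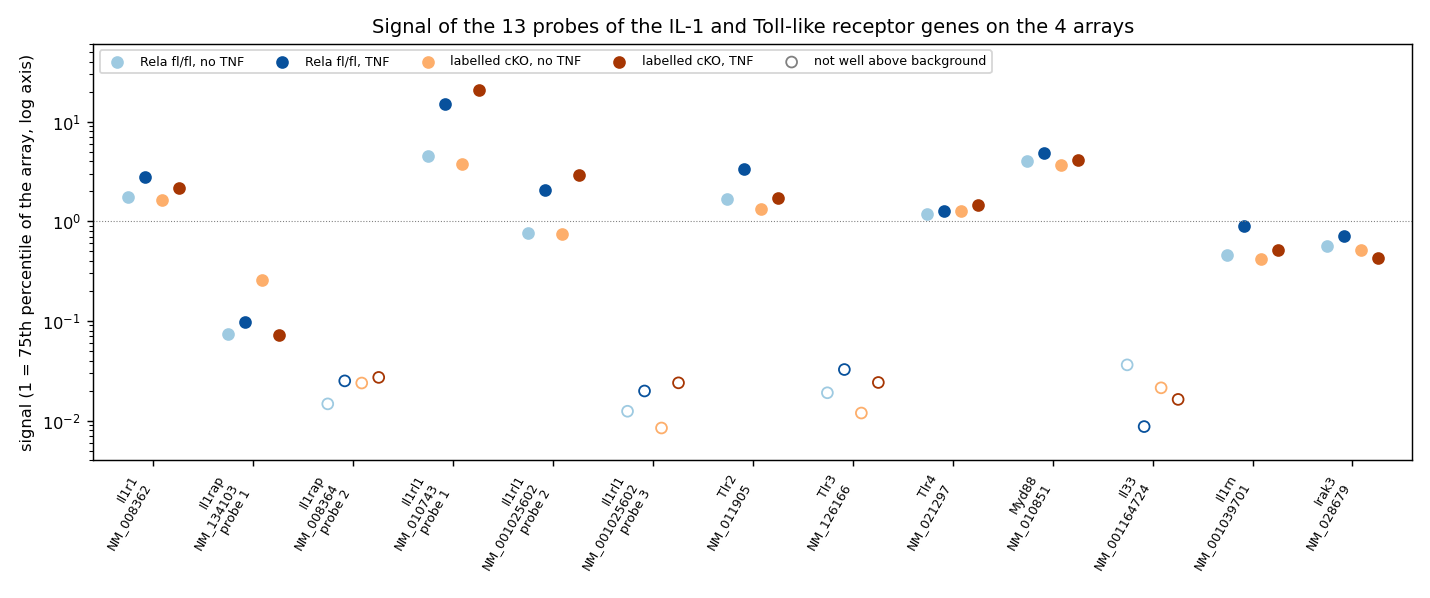
Signal of each of the 13 probes (log axis, 1 is the 75th percentile of the array) on the 4 arrays (control is labelled Rela fl/fl), 1 point per array, with open circles where the probe was not well above background. The first 2 Il1rl1 probes are higher with TNF in both genotypes, Tlr2 and Il1rn are highest on the control array with TNF, and 4 probes are open on all 4 arrays.

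Of the receptors, Il1rl1 had the largest TNF differences among the 10 genes. It encodes ST2, the receptor of IL-33, as a membrane form and as a secreted decoy form made from an alternative transcript. The probe of NM_010743, the transcript of the secreted form, read 4.56 in control cells without TNF and 15.1 with it, and 3.73 and 20.5 on the arrays labelled cKO. Both TNF arrays were thus far above both arrays without TNF. The difference was 1.72 (3.30-fold) in control cells and 2.46 (5.50-fold) with the cKO label. Only 31 of 24915 genes or unnamed transcripts tested had a larger TNF difference on the arrays labelled cKO, and 357 of 23415 in control cells.

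A probe of NM_001025602, the membrane form, moved alike. It read 0.760 and 2.05 in control cells without and with TNF, and 0.747 and 2.89 on the arrays labelled cKO, which were differences of 1.43 and 1.95. Probe positions within the transcripts were not used here, so whether either probe tells the forms apart is not known. The remaining Il1rl1 probe, also listed under NM_001025602, was not well above background on any array. For both measured probes the TNF difference was larger with the cKO label, by 0.73 for the former and 0.52 for the latter. Without TNF the cKO label went with a difference of −0.29 for the NM_010743 probe and −0.03 for the other. With TNF they were higher by 0.44 and 0.50, against 2 technical SDs of 0.173. Mast cells express ST2 as well. Of 5 mast cell markers, Kit, Fcer1a and Cma1 were not well above background on any array, Cpa3 was so on the control array with TNF (0.0722), and Tpsb2 was on all 4, at 0.150 and 0.178 in control cells and 0.261 and 0.190 with the cKO label. Their part in the Il1rl1 values was not tested.

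Il1rl1 had 2 start sites in the RefSeq promoter table of GRCm38.p6, and the 250 bases before each are shown because it was the gene with the largest differences. The κB motif that NF-κB dimers recognise was searched as GGG and CC with 5 bases of any kind between them, on both strands, from 250 bases before to 50 bases after each start. Of all 32851 promoters, 50.8% hold it, and it can overlap itself. Neither Il1rl1 promoter holds this run of letters, so none is in capitals.
Il1rl1, chr1:40429320-40429569, plus strand: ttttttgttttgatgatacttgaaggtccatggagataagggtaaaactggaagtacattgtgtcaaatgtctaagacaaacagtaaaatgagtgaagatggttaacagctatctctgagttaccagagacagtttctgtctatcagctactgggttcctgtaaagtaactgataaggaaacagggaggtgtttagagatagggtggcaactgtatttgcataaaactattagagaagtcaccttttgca
Il1rl1, chr1:40439379-40439628, plus strand: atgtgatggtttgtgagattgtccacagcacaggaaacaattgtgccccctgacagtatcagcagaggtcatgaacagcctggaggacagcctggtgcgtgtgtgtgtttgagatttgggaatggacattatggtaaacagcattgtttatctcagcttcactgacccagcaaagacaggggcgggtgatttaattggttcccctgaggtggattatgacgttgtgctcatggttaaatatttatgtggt

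Il1r1, the signalling receptor of IL-1α and IL-1β, had smaller differences. It read 1.76 in control cells without TNF and 2.79 with it, and 1.65 and 2.14 on the arrays labelled cKO. Signals were higher with TNF in both genotypes, by 0.67 (1.59-fold) and 0.38 (1.30-fold), each more than 2 technical SDs (0.173). The cKO label went with a difference of −0.09 without TNF and −0.38 with it. Its only spot lay in a patch on the control array without TNF, and the comparisons with that array have no value when spots in patches are left out. Il1r2, the decoy receptor of IL-1, was not well above background on any array.

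Il1rap, the accessory chain shared by the receptors of IL-1 and IL-33, was dim throughout. Its NM_134103 probe read 0.0733 and 0.0982 in control cells without and with TNF, then 0.258 and 0.0723 on the arrays labelled cKO. A single value, that of the cKO array without TNF, stood apart from the other 3. It set the difference of 1.81 between genotypes without TNF and the TNF difference of −1.83 in cells labelled cKO. The spot lay in a patch on that array, with 10 bright spots around it, and neither comparison has a value when spots in patches are left out. A probe of another Il1rap transcript, NM_008364, had processed intensities of 8.95 to 16.0 and was not well above background on any array. The remaining Il1rap differences, 0.42 with TNF in control cells and −0.44 between genotypes with TNF, were within 2 technical SDs (0.542).

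Tlr2, the receptor of bacterial lipoproteins, differed more than Tlr4, and Tlr3 could not be measured. Its 10 spots, of which 7 to 10 were kept, averaged a signal of 1.66 in control cells without TNF and 3.36 with it, and 1.34 and 1.71 on the arrays labelled cKO. The control array with TNF was the highest, and the other 3 read 1.34 to 1.71. The TNF difference was 1.02 (2.03-fold) in control cells and 0.36 (1.28-fold) with the cKO label, a gap of −0.66. At the limit this gene is a borderline case, since 1.02 lies just above 1, and it was 0.99 with quantile normalization. Between the arrays with TNF the cKO label went with a difference of −0.97 (1.96-fold lower), and only 818 of 24525 genes or unnamed transcripts tested had a more negative difference. Without TNF the difference was −0.31. Computed for 10 spots, 2 technical SDs were 0.0546.

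In the kept spots of Tlr2 the control array with TNF lay above the other 3, and the cKO array without TNF lay below the rest. Processed intensities of the spots kept ran from 903 to 1054 in control cells without TNF and from 1970 to 2166 with it, and from 788 to 885 and 937 to 1088 on the arrays labelled cKO. At the 7 positions kept on both control arrays the TNF difference was 0.96 to 1.12. It was 0.25 to 0.44 at the 8 positions kept on both arrays labelled cKO. At the 8 positions kept on both arrays with TNF, the difference between genotypes was −1.11 to −0.81. Without TNF it was −0.39 to −0.25 at the 7 positions kept. Spots of 1 array share their RNA and hybridisation, so this shows how well each array was measured and not how cultures vary. The Tlr2 spots in patches were 2, on the cKO array without TNF.

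**Figure D2:**
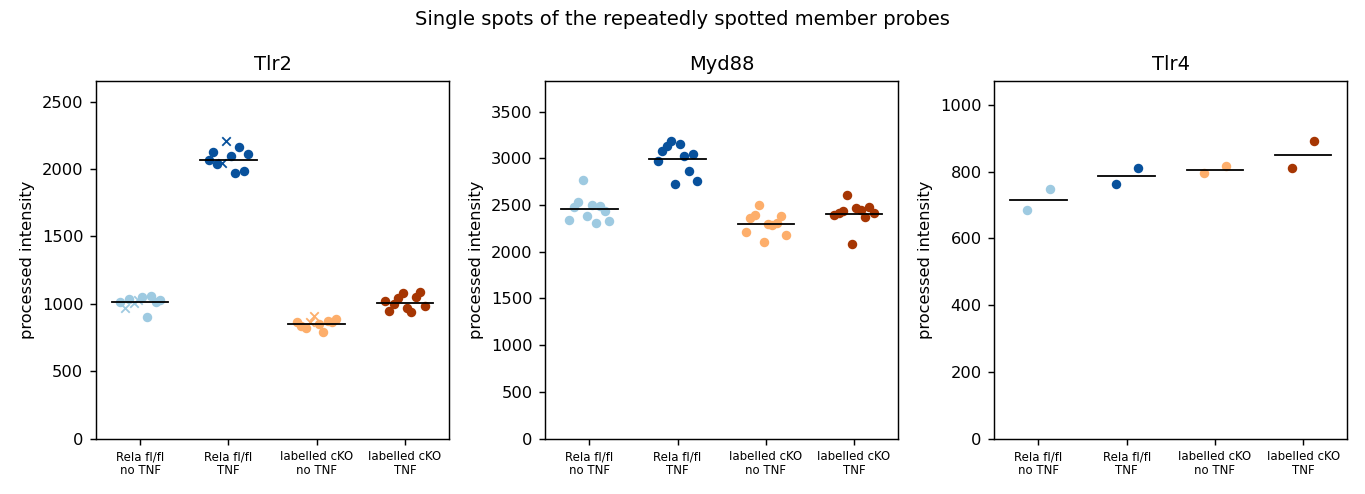
Processed intensity of each spot of Tlr2 (10 spots), Myd88 (10 spots) and Tlr4 (2 spots) on the 4 arrays, where a line is the mean of the spots kept (on the log scale) and a cross is a spot left out as an outlier. Kept Tlr2 spots of the control array with TNF, at 1970 to 2166, lie above all spots of the other 3 arrays, while Tlr4 spots lie between 686 and 893 throughout.

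The Tlr2 promoter is shown because Tlr2 differed between the arrays with TNF. A pair of overlapping matches to the κB motif, in capitals, begins 173 and 172 bases before the start, and others that cross the start begin 9 to 7 bases before it and are not marked. A match is a run of letters and not a binding site.
Tlr2, chr3:83841609-83841858, minus strand: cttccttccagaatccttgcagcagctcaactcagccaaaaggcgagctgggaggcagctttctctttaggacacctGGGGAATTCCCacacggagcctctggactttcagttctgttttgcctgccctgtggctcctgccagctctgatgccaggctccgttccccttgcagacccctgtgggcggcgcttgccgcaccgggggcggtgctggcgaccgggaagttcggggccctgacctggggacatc

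Tlr4, the receptor of lipopolysaccharide, read 1.17 and 1.28 in control cells without and with TNF and 1.27 and 1.44 on the arrays labelled cKO. All 4 differences were between 0.12 and 0.18, beside 2 technical SDs of 0.122, and that with TNF and the cKO label was 0.08 without scaling. Tlr3, which recognises double-stranded RNA, had processed intensities of 7.53 to 20.0 and was not well above background on any array.

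Myd88, the adaptor of the IL-1 receptors and of most TLRs, was measured by 10 spots. The signal was 4.02 in control cells without TNF, 4.86 with it, and 3.64 and 4.08 on the arrays labelled cKO. TNF differences were 0.28 (1.21-fold) and 0.17 (1.12-fold), and each of the 10 positions was higher with TNF in both genotypes. Without scaling the difference with the cKO label was 0.07, with 9 of the 10 positions higher, so this small value depends on the scaling. With the cKO label each of the 10 positions was lower, with a mean difference of −0.14 without TNF and −0.25 with it. For 10 spots, 2 technical SDs came to 0.0546. On the control arrays 3 of the spots lay in a patch without TNF and 1 with TNF. With spots in patches left out the differences between genotypes were −0.12 and −0.24. As for Tlr2, the positions share the RNA of their array and are not replicates.

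Il33, the ligand of ST2, was not well above background on any array, with processed intensities of 5.35 to 22.1. The gene of the receptor was thus measured on all arrays and that of its ligand on none.

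Of the inhibitors, Il1rn encodes the IL-1 receptor antagonist, which occupies Il1r1 without signalling. It read 0.453 and 0.887 in control cells without and with TNF, and 0.421 and 0.518 on the arrays labelled cKO. As for Tlr2, the control array with TNF was the highest, and the other 3 read 0.421 to 0.518. The TNF difference of 0.97 (1.96-fold) in control cells fell just short of the limit but was 1.01 with quantile normalization, and that with the cKO label was 0.30 (1.23-fold), or 0.19 without scaling. With TNF the cKO array differed from the control array by −0.78 (1.71-fold lower), while without TNF the difference of −0.10 was within 2 technical SDs (0.286). Its spot lay in no patch on any array. Of the 3 Il1rn promoters, the window with a match 51 bases before its start is shown because Il1rn and Tlr2 had like values, with the match in capitals.
Il1rn, chr2:24345121-24345370, plus strand: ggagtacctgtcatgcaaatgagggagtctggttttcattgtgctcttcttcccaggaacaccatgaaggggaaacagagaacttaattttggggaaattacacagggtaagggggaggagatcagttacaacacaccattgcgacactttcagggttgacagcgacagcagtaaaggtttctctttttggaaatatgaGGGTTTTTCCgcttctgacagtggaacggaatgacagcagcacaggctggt

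The table gave 15 promoters for 9 of the 10 genes, with no entry for Tlr4. Of these, 8 promoters of 6 genes hold the κB motif (Tlr2, Il1rn, Irak3, Il1r1, Il1rap and Tlr3), a share near that of all promoters. Those of Il1rl1, Myd88 and Il33 do not hold these letters in this window.

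Irak3, also called IRAK-M, is a kinase-like protein known to dampen signalling through Myd88. It read 0.558 in control cells without TNF and 0.705 with it, and 0.515 and 0.428 on the arrays labelled cKO. The TNF differences had opposite signs, 0.34 in control cells and −0.27 with the cKO label, beside 2 technical SDs of 0.286. The latter was −0.37 without scaling and −0.15 with quantile normalization, so whether it passes that spread depends on the scaling. With TNF the genotypes differed by −0.72 (1.65-fold lower with the cKO label), and without TNF by −0.12.

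Between genotypes without TNF, the median difference over the 8 genes was −0.11, with 6 genes below 0 and 2 above. Il1rap, with its spot in a patch, was past the limit upwards and no gene was downwards, where 3.52% of all genes were past it upwards and 4.40% downwards (1.29% and 1.05% with patches left out, 2.21% and 3.55% for genes with a symbol). With TNF the median was −0.41, again with 6 genes below 0, and no gene was past the limit in either direction, where the shares of all genes were 1.17% and 3.23% (1.06% and 1.06% with patches left out, 1.28% and 2.51% for genes with a symbol). Tlr2 was past it at −1.04 without scaling and −1.03 in the authors' values. The median over all genes was 0.00 without TNF and 0.05 with it. Tlr2, Il1rn and Irak3, at −0.97, −0.78 and −0.72, had the most negative differences with TNF, and Il1rl1 and Tlr4 were above 0. The genotype differences without and with TNF come from different arrays, but each array with TNF also enters a TNF difference.

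**Figure D3:**
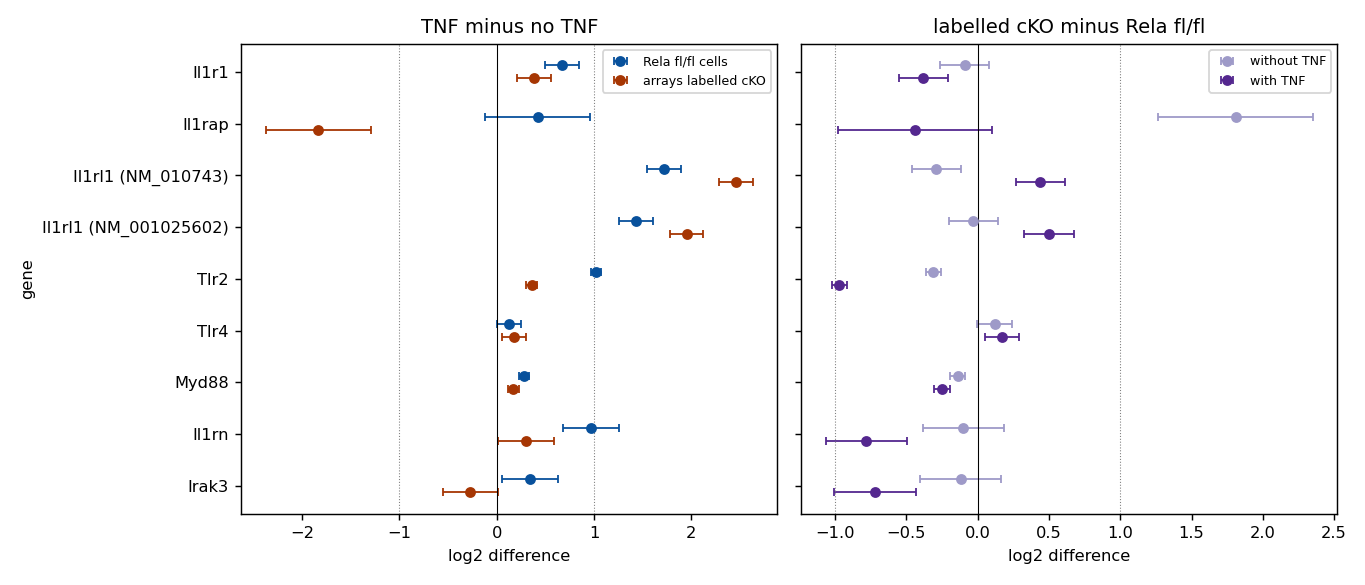
Log2 difference of the 9 probes well above background on all 4 arrays, for TNF against no TNF in each genotype (left) and for the cKO label against control without and with TNF (right). Bars are 2 technical SDs of a difference and dotted lines mark the 2-fold limit, and with TNF Tlr2 (−0.97), Il1rn (−0.78) and Irak3 (−0.72) lie to the left of 0 while both Il1rl1 probes (0.44 and 0.50) lie to the right.

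Genes with the most similar pattern were sought for the 4 genes whose signals spanned a log2 range of at least 1, by the Euclidean distance of the 4 log2 values centred on their mean, among 13354 genes with a symbol well above background on all arrays. For Tlr2 these were Vcam1 (distance 0.0796), Saa1 (0.126) and Tapbp (0.138). For Il1rn they were Xdh (0.0463), Il13ra1 (0.0818) and Tapbp (0.0900), so that Tapbp was near both. Vcam1, a leukocyte adhesion molecule, read 1.43 and 2.81 in control cells and 1.18 and 1.41 with the cKO label. Il1rl1 had no such close neighbour. Its nearest genes were Traf1 (0.687), U90926 (0.709) and Cxcl10 (0.874). Traf1, a TNF receptor adaptor, was higher with TNF by 1.01 in control cells and by 2.13 with the cKO label, and Traf1 and Cxcl10 each had a spot in a patch on 1 array. For Il1rap they were Rab11fip4 (0.106), AI987944 (0.311) and Zfp444 (0.313), of which Rab11fip4 and Zfp444 also had spots in patches. Distances rest on 4 values each and are descriptions.

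**Figure D4:**
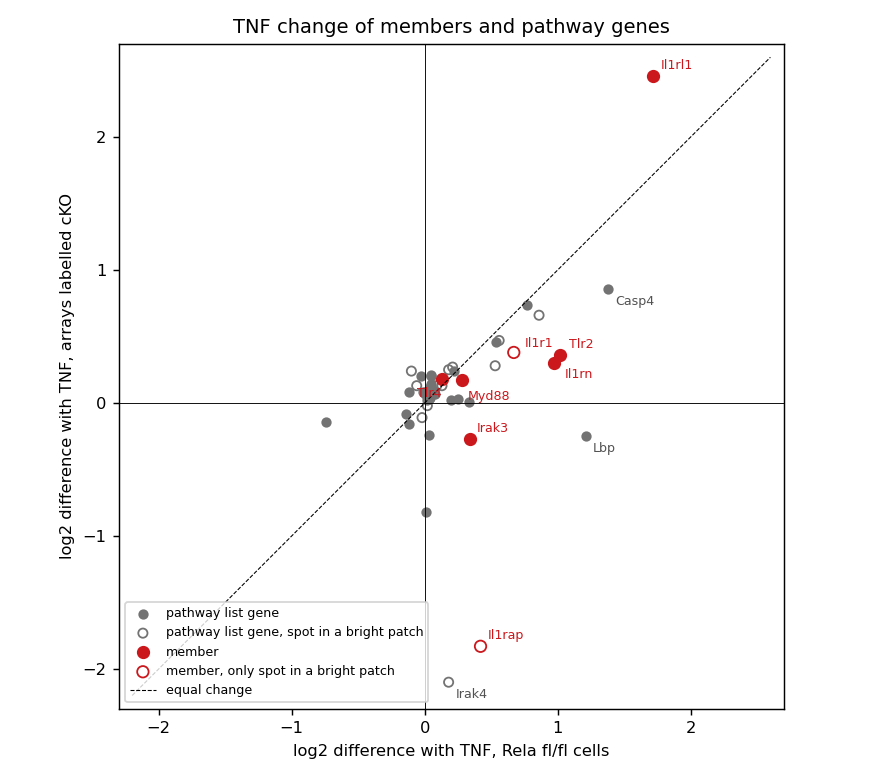
TNF difference on the arrays labelled cKO (vertical, log2) against that in control cells (horizontal, log2) for the 8 measured genes (red) and for pathway genes well above background on all 4 arrays (grey). Open circles mark pathway genes with a spot in a patch and measured genes whose only spot lay in a patch. Myd88 and Tlr2, with only some of their spots in patches, are filled. Most pathway genes lie near 0 on both axes, Il1rl1 lies above the dashed line of equal change at 1.72 and 2.46, and Tlr2, Il1rn, Casp4 and Lbp lie below it.

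Other genes of the pathways were taken from 8 lists of 71 genes, of which 70 were on the array, 20 were not well above background on any array and 40 were on all 4. With TNF in control cells 2 of 44 tested genes were past the limit upwards and 2 downwards (2.40% and 4.27% of all genes), with a median of 0.05. On the arrays labelled cKO these were 2 and 3 of 47 (1.02% and 4.47% of all genes), with a median of 0.10. Between genotypes without TNF they were 2 and 2 of 45 (3.52% and 4.40%), with a median of −0.04. With TNF they were 3 and 3 of 48 (1.17% and 3.23%), with a median of 0.01. In all 11 genes were past the limit somewhere, of which only Lbp and Casp4 were well above background on all 4 arrays with no spot in a patch.

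Lbp, the serum protein that carries lipopolysaccharide to CD14, read 0.847 and 1.97 in control cells without and with TNF and 0.567 and 0.475 on the arrays labelled cKO. It was higher with TNF by 1.21 in control cells and differed by −0.25 with the cKO label. The genotypes differed by −0.58 without TNF and by −2.05 with it. Casp4, the caspase that senses intracellular lipopolysaccharide, read 1.97 and 5.15 in control cells and 1.32 and 2.39 with the cKO label. The TNF differences were 1.38 and 0.86, and the genotypes differed by −0.58 without TNF and by −1.11 with it. A further Casp4 probe, with spots in patches on both arrays without TNF, gave 1.22, 0.80, −0.70 and −1.12 for these comparisons.

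The ligand genes of IL-1 itself, Il1a and Il1b, were not well above background on any array. They and Il1r2 were named after their values were seen. Il18 read 2.14, 1.97, 1.87 and 1.67 in the order used above, with TNF differences of −0.12 and −0.16, and those of its binding protein Il18bp were 0.03 and −0.24. Sigirr, an inhibitory receptor of the family, had TNF differences of −0.10 and 0.24 and a difference of −0.67 with the cKO label without TNF. Among the other TLRs, the nucleic acid sensors Tlr9, Tlr7 and Tlr13 had TNF differences of −0.06 to 0.13. Of the proteins that serve TLRs, the chaperones Hsp90b1 and Cnpy3 differed with TNF by −0.02 to 0.08, and Ly96, the MD-2 chain of the Tlr4 complex, by 0.18 and 0.25. Cd14, which was not among the genes to be named and was added after its values were seen, differed by 0.54 and 0.46.

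Of the adaptors other than Myd88, Tirap, Ticam1 (TRIF) and Tollip differed with TNF by 0.00 to 0.13 in either genotype, and further Tollip probes by −0.18 to 0.26. Of the kinases and ubiquitin enzymes, Irak2 differed by 0.04 and 0.12, while its dimmer probe, at signals of 0.0632 to 0.136, gave at least 0.48 and −0.77. Ube2v1 differed by −0.03 and 0.20, with further probes at −0.02 to 0.19, and Traf3 by 0.56 and 0.47. In the processing list the inflammasome adaptor Pycard differed by −0.14 and −0.08, Elane by −0.02 and −0.11, and Gsdmd, the pore-forming protein that releases IL-1β, by 0.86 and 0.66. The interferon factors Irf3, Irf1 and Irf7 differed by 0.05 and 0.14, 0.53 and 0.28, and 0.20 and 0.02. A further Irf1 probe was well above background only in control cells with TNF. Of the genes named in these last paragraphs, Sigirr, Tlr13, Ticam1 and Gsdmd had spots in a patch on the control array without TNF, as had Il1b, and Cnpy3, Ly96, Tirap, Traf3, Elane and Irf1 on another array. Gsdmd also had one on the cKO array without TNF, and both further Ube2v1 probes had one on the control array with TNF.

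The other 9 genes past the limit were dim on some array or had a spot in a patch. Irak4 read 0.291, 0.328, 1.29 and 0.301, the high value lying in a patch, while its other probe gave TNF differences of 0.39 and 0.35. Ctsg likewise read 1.25 on the cKO array without TNF, in a patch, and 0.0788 on that with TNF. Ticam2 (0.192) and Il1f10 (0.0743) were well above background only on the control array without TNF, where both lay in patches, with bounds of −2.38 and −1.01 for the TNF difference there. Tlr12 (0.166) and Il18rap (0.0604) were so only on the cKO array with TNF, in no patch there, the former with a TNF difference of at least 2.68 there. Casp1 (0.0553) was so only in control cells with TNF, in a patch. Nlrp3 differed by −1.06 with TNF on the arrays labelled cKO at signals of 0.0857 and 0.0412, and Peli3 was higher with the cKO label by 1.67 with TNF at 0.0840 and 0.267, its spot on the control array without TNF being left out as an outlier.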

How the data were processed

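RNA of 4 chondrocyte cultures was hybridised to Agilent SurePrint G3 mouse arrays, 1 array per combination of genotype and treatment. The authors deposited the scanner output of each array as processed intensity, which Feature Extraction 10.10.1.1 had corrected for background, with flags for outlier spots and for spots well above background. A deposited table of scaled intensity held the same values times 1 factor per array (1.77 to 1.83), whose basis is not given in the sources used here.

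The log2 intensity of each transcript spot was centred on the 75th percentile of its array, outlier spots were left out (138 to 225 per array), a probe was the mean of its spots, and a gene was read from its brightest probe over the 4 arrays. A probe was well above background where at least 50% of its kept spots were. Against a dimmer probe not well above background, the higher of its own signal and the smallest well-above-background signal of that array was used, so such differences are bounds. Symbols came from the RefSeq table of GRCm38.p6, which matched 20435 of 20809 NM accessions. The arrays were designed on mm9, and no gene coordinates were taken from the table. The printed promoters are those of RefSeq, GRCm38.p6.

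The 10 genes, the lists and the rules were chosen with earlier results of these data known. Named pathway genes are those past the limit and up to 3 more per list with the highest signal, with Cd14, Il1a, Il1b and Il1r2 added later. No p-values were computed. The calls were tested on simulated data with a change of 1.5 on the log2 scale in 200 bright genes. That simulation held no patches and gave dim and bright spots equal noise. It cannot show how often patches or dim spots give false calls. Depth does not apply to arrays, and their number limits the precision. Alternatives in scaling, background, filter, probe, limit and patches were run with Python 3.11.15, numpy 2.4.6, pandas 2.3.3, R 4.3.3 and limma 3.58.1. The normexp alternative used the median spot signal.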

Additional observations from a re-analysis of the deposited data

Results flagged for a closer look

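The TNF differences of Il1rap and Irak3 had opposite signs in the 2 genotypes, with 1 array each, so neither contrast was tested. For Il1rap they were 0.42 in control cells and −1.83 on the arrays labelled cKO, a gap of −2.26, with the spot in a patch on the cKO array without TNF. With normexp background correction the gap was −0.86 and the value in control cells 0.00, so the signs are not opposite there, and with the mean over probes the gap was −1.42. For Irak3 they were 0.34 and −0.27, a gap of −0.60, with no spot in a patch.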

How the results depend on the processing

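There was no replicate to leave out. Arrays could not be paired by replicate number because each condition has a single array, so the replicate number 1 that all arrays carry gives no repeated pairs. An additive fit over the 4 arrays, with genotype as a block, was not run. Of 351 member values recomputed under other settings, 301 shifted within the technical SD, 50 beyond it and 0 called values changed sign. Il1rl1 ranged from 1.28 to 1.74 with TNF in control cells and from 1.97 to 2.46 with the cKO label, and its gap from 0.62 to 0.73. Tlr2 ranged from 0.93 to 1.03 with TNF in control cells, so its call at 2-fold depends on the setting, and from −1.04 to −0.85 between genotypes with TNF. Il1rn ranged from 0.76 to 1.01 with TNF in control cells, so that with quantile normalization the counted genes are Il1rl1 and Il1rn in place of Tlr2. Il1rap ranged from 0.00 to 0.60 with TNF in control cells, from −1.94 to −0.82 with TNF in cells labelled cKO, and from 0.72 to 1.86 between genotypes without TNF, and the gap of Tlr4, 0.05, was −0.06 without scaling. The median TNF difference of all genes with the cKO label was 0.06, −0.04 without scaling and −0.05 in the authors' values.

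Counts past the limit are given upwards and downwards for TNF in control cells, TNF with the cKO label, genotype without TNF and genotype with TNF, first for the 10 genes and then for the pathway lists. As reported they were 2 and 0, 1 and 1, 1 and 0, 0 and 0, then 2 and 2, 2 and 3, 2 and 2, 3 and 3. With a 1.5-fold limit they were 4 and 0, 1 and 1, 1 and 0, 0 and 3, then 4 and 3, 6 and 5, 3 and 3, 6 and 4. With a 3-fold limit they were 1 and 0, 1 and 1, 1 and 0, 0 and 0, then 0 and 1, 1 and 2, 2 and 1, 2 and 1. With the authors' scaled values they were 1 and 0, 1 and 1, 1 and 0, 0 and 1, then 2 and 2, 1 and 3, 2 and 2, 3 and 4. With no scaling they were 2 and 0, 1 and 1, 1 and 0, 0 and 1, then 2 and 1, 1 and 3, 2 and 2, 3 and 4. With quantile normalization they were 2 and 0, 1 and 1, 1 and 0, 0 and 0, then 2 and 1, 3 and 2, 2 and 2, 3 and 3. Normexp background correction gave 1 and 0, 1 and 0, 0 and 0, 0 and 0, then 2 and 0, 0 and 2, 2 and 0, 1 and 2. Requiring both arrays to be well above background gave 2 and 0, 1 and 1, 1 and 0, 0 and 0, then 2 and 0, 0 and 3, 1 and 0, 1 and 2. With no filter on dim probes they were 2 and 1, 2 and 1, 1 and 0, 0 and 0, then 5 and 3, 4 and 4, 4 and 3, 3 and 4. With the mean over probes they were 2 and 0, 1 and 0, 1 and 0, 0 and 0, then 3 and 2, 2 and 1, 2 and 2, 3 and 3. With spots in patches left out they were 2 and 0, 1 and 0, 0 and 0, 0 and 0, then 2 and 0, 1 and 1, 0 and 0, 3 and 2. With only spots with at least 6 bright neighbours left out they were 2 and 0, 1 and 0, 0 and 0, 0 and 0, then 2 and 0, 2 and 1, 0 and 0, 3 and 2. In that setting the shares of all genes were 0.880 to 2.43% over the 4 comparisons and both directions. Over the 4 comparisons and both directions, the shares of all genes were 1.02 to 4.47% as reported, 3.68 to 8.47% at 1.5-fold, 0.333 to 3.21% at 3-fold, 0.694 to 5.10% in the authors' values, 0.710 to 5.07% without scaling, 1.26 to 4.53% with quantile normalization, 0.237 to 2.58% with normexp, 0.444 to 2.14% with both arrays well above background, 3.64 to 6.37% with no filter, 0.959 to 4.16% with the mean over probes and 0.598 to 1.78% with patches left out. Causes of these changes were not tested, and a filter leaves fewer probes or spots. Dim probes limit Il1rap, Il33 and Tlr3.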
